A study of Mus musculus with 12 samples.

Results

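The RNA of 10 genes that act when a cell leaves the cell cycle was followed in C2C12 cells, an established line of mouse skeletal muscle myoblasts. The genes were listed by function, with no threshold on a measured value, and comprise the CDK inhibitors Cdkn1a, Cdkn1b, Cdkn1c and Cdkn2c, the D-type cyclins Ccnd1, Ccnd2 and Ccnd3, their kinase Cdk4, and the pocket protein genes Rb1 and Rbl1. They are 10 of the 55416 genes in the count table, and all 10 were among the 13250 genes with enough counts to be tested. Total RNA was sequenced in 12 libraries, 3 biological replicates in each of 4 groups. KO DM and KO GM are cells labelled as Mapk14 knockout (Mapk14-/-), kept for 5 days in differentiation medium (DM, with 2% horse serum) or in growth medium (GM, to which 10% FBS was added). WT DM and WT GM are wild-type cells kept for the same time in the same media. All groups come from the same parental line. The sources used here do not give how the gene was disrupted or how many knockout clones were used, so a difference between KO and WT libraries cannot be told apart from a difference between clones.

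D-type cyclins bind CDK4 or its relative CDK6, and the complex phosphorylates the retinoblastoma protein (from Rb1) and its relatives p107 (from Rbl1) and p130 (from Rbl2). Phosphorylated pocket proteins let go of E2F transcription factors, which then drive genes of DNA replication. Inhibitors of the CIP/KIP family, p21 (Cdkn1a), p27 (Cdkn1b) and p57 (Cdkn1c), bind cyclin-CDK complexes, whereas inhibitors of the INK4 family such as p18 (Cdkn2c) bind the kinases CDK4 and CDK6 themselves. In cultured myoblasts that withdraw from the cycle and fuse, p21 and cyclin D3 are known to accumulate, cyclin D1 is known to be lost, and the retinoblastoma protein is needed to hold the arrest.

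The 3 genes on which the results below turn most, Cdkn1a, Ccnd3 and Rbl1, are shown with the 250 bases before each RefSeq transcription start, on GRCm38.p6 and read 5′ to 3′ on the strand of the gene. Capitals mark matches, on either strand, to any of 6 motifs: the E-box CANNTG bound by MyoD and related factors, an E2F motif (TTTCCCGC, TTTCGCGC, TTTGCCGC or TTTGGCGC), the GC box GGGCGG, the cAMP response element core TGACGT, the AP-1 motif TGANTCA, and the p53 half-site RRRCWWGYYY. Here N is any base, R is A or G, W is A or T, and Y is C or T. No matches overlap each other in these windows.
Cdkn1a, first start, chr17:29090729-29090978, plus strand: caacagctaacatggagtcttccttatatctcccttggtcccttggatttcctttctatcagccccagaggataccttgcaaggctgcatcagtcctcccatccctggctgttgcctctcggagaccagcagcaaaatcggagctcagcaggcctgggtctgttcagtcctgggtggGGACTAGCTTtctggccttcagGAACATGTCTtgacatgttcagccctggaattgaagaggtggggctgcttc
Cdkn1a, second start, chr17:29093519-29093768, plus strand: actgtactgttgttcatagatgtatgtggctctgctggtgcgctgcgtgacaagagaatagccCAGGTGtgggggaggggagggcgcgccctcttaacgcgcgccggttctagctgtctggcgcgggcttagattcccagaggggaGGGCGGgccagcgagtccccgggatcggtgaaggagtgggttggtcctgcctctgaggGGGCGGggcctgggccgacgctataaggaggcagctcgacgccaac
Ccnd3, first start, chr17:47504801-47505050, plus strand: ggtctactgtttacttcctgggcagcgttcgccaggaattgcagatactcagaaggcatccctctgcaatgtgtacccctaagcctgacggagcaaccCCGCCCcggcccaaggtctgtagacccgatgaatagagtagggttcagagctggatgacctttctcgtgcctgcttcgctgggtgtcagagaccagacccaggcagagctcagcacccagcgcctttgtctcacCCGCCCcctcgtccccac
Ccnd3, second start, chr17:47593217-47593466, plus strand: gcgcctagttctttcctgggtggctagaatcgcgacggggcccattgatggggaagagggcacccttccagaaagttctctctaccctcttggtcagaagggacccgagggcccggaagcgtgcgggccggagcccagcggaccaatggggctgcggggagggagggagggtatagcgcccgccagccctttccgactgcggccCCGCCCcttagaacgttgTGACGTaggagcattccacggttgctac
Rbl1, chr2:157204535-157204784, minus strand: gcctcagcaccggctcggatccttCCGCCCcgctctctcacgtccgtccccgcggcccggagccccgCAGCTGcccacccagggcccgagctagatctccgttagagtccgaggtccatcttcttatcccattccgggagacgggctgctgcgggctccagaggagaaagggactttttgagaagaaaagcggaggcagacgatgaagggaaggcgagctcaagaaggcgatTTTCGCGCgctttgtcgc

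The Cdkn1a window of the first start holds 2 matches to the p53 half-site, GGACTAGCTT and GAACATGTCT. Directly after GAACATGTCT follows tgacatgttc, which differs from that motif at its first base only and is not marked. The Cdkn1a window of the second start holds an E-box and 2 GC boxes. Ccnd3 has GC boxes in both windows and a TGACGT in the second. Rbl1 has an E-box, a GC box and the E2F match TTTCGCGC, which lies 18 bases before the start. Across all 32841 windows of the same length, an E-box was present in 66.2%, a GC box in 32.7%, a p53 half-site in 7.13%, an AP-1 motif in 6.75%, TGACGT in 6.47% and an E2F motif in 1.86%. All windows averaged 53.2% G or C, against 54.0% and 64.8% in the Cdkn1a windows, 59.6% and 64.8% in those of Ccnd3 and 63.6% in that of Rbl1. The shares with a match were not adjusted for this content. RefSeq windows were matched for 6 of the 10 genes. Of those not printed, Cdk4 had 4 E-boxes, all CACGTG, with 1 GC box, Cdkn1b had 1 GC box, and the first of the 2 Cdkn2c windows had 3 GC boxes. Ccnd1, Ccnd2, Cdkn1c and Rb1 have no printed window.

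The libraries held between 8821669 and 11536396 counts each. Levels are given as CPM, the count scaled to the size of the library. The limit that a count of 0 allows, 3 counts, lay between 0.26 and 0.345 CPM in single libraries. Mapk14, the gene named in the label, had 93.8, 90.0 and 84.5 CPM in KO DM, 130, 136 and 137 CPM in KO GM, 93.9, 91.2 and 88.7 CPM in WT DM and 130, 135 and 108 CPM in WT GM. It was thus not lower in the libraries labelled KO, with a log2 fold change of -0.03 ± 0.08 in DM (adjusted p = 0.822) and 0.11 ± 0.08 in GM (adjusted p = 0.35), and KO below means the label. The 8 defining myoblast and muscle markers were present, with summed levels of 2878 to 3309 CPM for KO DM, 308 to 550 CPM for KO GM, 6226 to 6307 CPM for WT DM and 1596 to 2227 CPM for WT GM. Of these markers 7 rose in DM in KO-labelled cells and 8 in WT cells, and under the KO label 6 were lower in DM and 8 in GM; their part in the results below was not tested. Of the markers of other cell types, Ptprc, Adgre1, Epcam, Krt18, Sox10 and Adipoq had no count in any library. The 5 leukocyte markers, of which Cd14 was the most abundant, summed to between 25.3 and 30.7 CPM in KO DM, 36.2 and 42.7 CPM in KO GM, 17.6 and 20.2 CPM in WT DM, and 31.7 and 46.2 CPM in WT GM. Cd14 fell in DM under both labels, was higher in KO DM than in WT DM, and was called in the difference of the responses. Adipocyte markers summed to between 3.07 and 6.33 CPM in KO libraries and between 6.39 and 14.6 CPM in WT libraries. The summed neural markers, mostly Tubb3, were at 6.32 to 18.5 CPM in all KO libraries and 45.1 to 54.6 CPM in all WT libraries, and the part of these 3 lists in the results was not tested. In both GM groups the library numbered 3 stood apart from its group, with a chi-square per degree of freedom of 9.66 to 14.6 against the other libraries of its group, where all other replicate pairs gave 3.52 to 6.32. These libraries had the highest muscle marker sums of their groups, and calls of the 10 genes that change without both are given with both values.

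Cells in DM held more RNA of the inhibitors p21 and p18 and of Rb1, and less of cyclins D1 and D2, under both genotype labels. In WT cells cyclin D3 and p107 RNA rose as well, whereas in KO-labelled cells the changes of neither passed the test. Between the labels, Ccnd3 and Cdkn1a fell in KO-labelled cells in both media. All 3 proliferation markers given below rose in DM too, under both labels. Mki67 averaged 100 CPM in KO DM, 37.5 in KO GM, 87.7 in WT DM and 24.2 in WT GM. Whether fewer cells cycled in DM was not tested. In the response of KO-labelled cells (KO DM against KO GM) 3 of the 10 genes rose and 2 fell at an adjusted p below 0.05. Of all tested genes 40.6% were called there, 20.8% higher and 19.8% lower. In the response of WT cells (WT DM against WT GM) 5 rose and 2 fell, and of all tested genes 33.2% were called, 18.4% higher and 14.8% lower. The median log2 fold change of the 10 genes was 0.16 in the KO response and 0.32 in the WT response, beside medians of 0.00 and -0.01 over all tested genes. Between labels in DM (KO DM against WT DM) 1 of the 10 was higher and 4 were lower, and of all tested genes 31.0% were called, 13.6% higher and 17.4% lower. The count of 5 dropped to 2 without WT DM library 3, and to 3 without WT DM library 2 or any one of the KO DM libraries. Over all tested genes, leaving out 1 library at a time gave 3177 to 4583 called genes in this comparison, against 4114 with all 12 libraries. In GM (KO GM against WT GM) 1 was higher and 2 were lower, and of all tested genes 20.7% were called, 10.0% higher and 10.6% lower. With library totals alone as the scaling, the share of called genes that were higher was 52.0% in place of 43.8% in DM between labels, and 47.3% in place of 55.4% in the WT response. With the scaling used elsewhere, the median of the 10 genes between labels was -0.07 in DM and -0.10 in GM. Over all tested genes these medians were -0.02 and 0.00. These comparisons share libraries and are not independent of each other. In RNA from whole cultures, fewer cells that express a gene and less RNA of it per cell cannot be told apart.

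**Figure D1:**
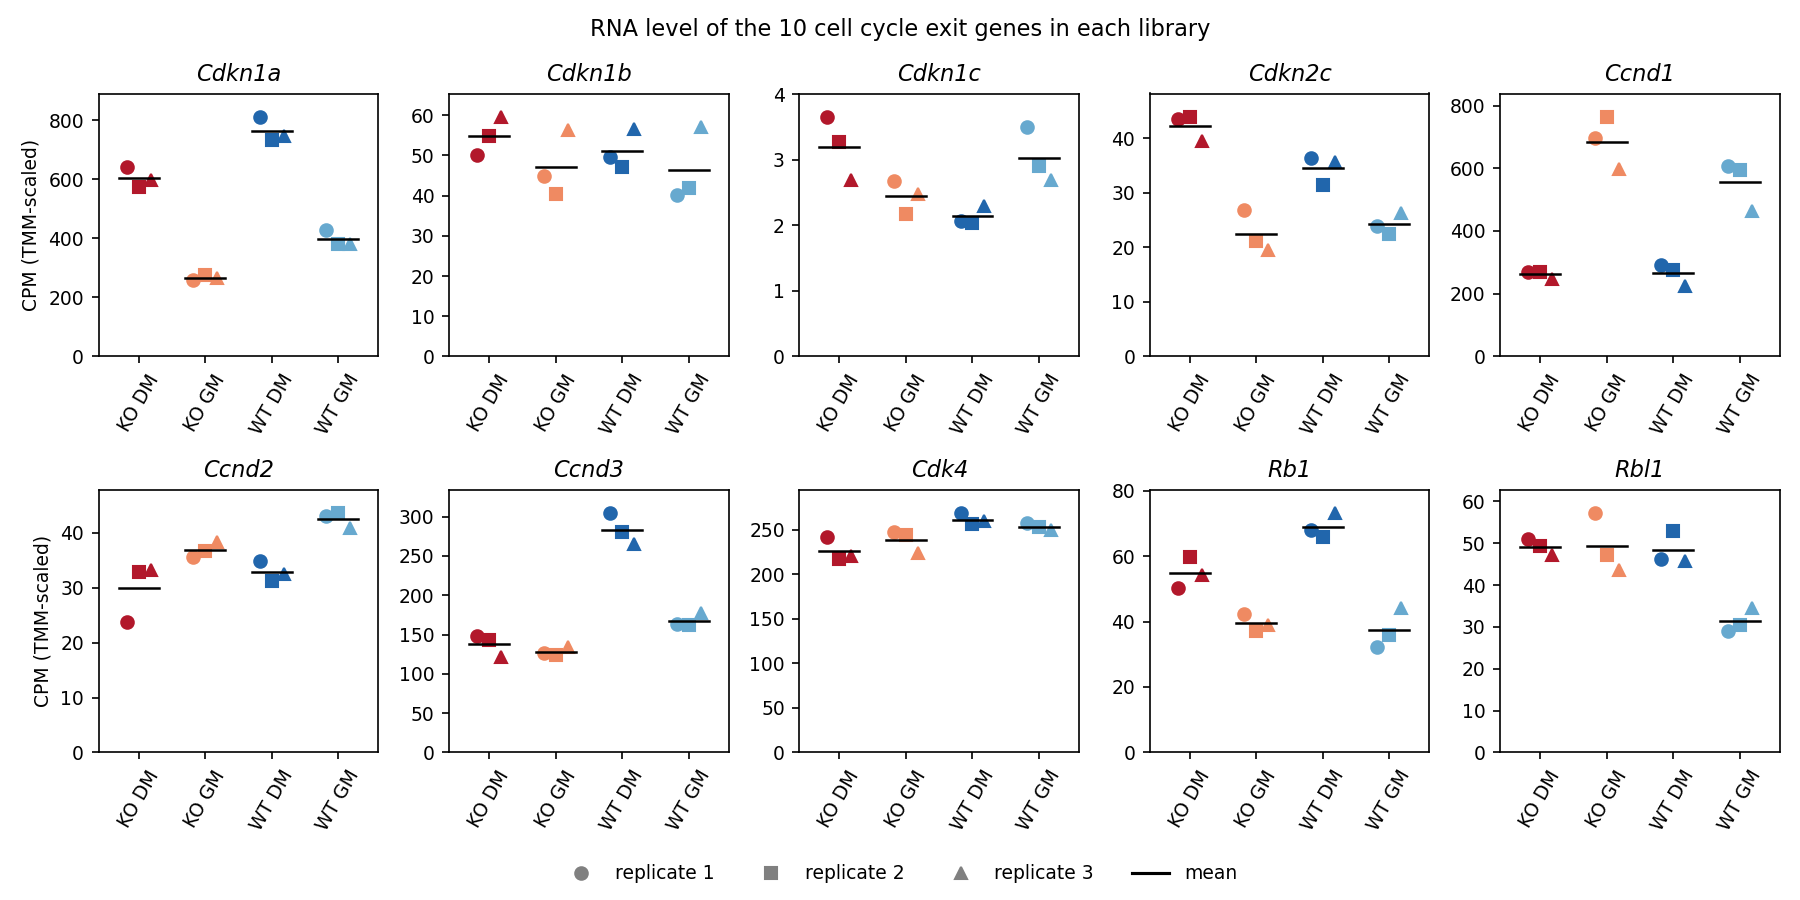
Each panel plots 1 gene in CPM on a linear axis from 0, with the 3 libraries of KO DM, KO GM, WT DM and WT GM as symbols by replicate number and the group mean as a line. Cdkn1a separates all 4 groups, Ccnd3 is high in WT DM alone, Rbl1 is low in WT GM alone, and Ccnd1 parts GM from DM.

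Cdkn1a (ENSMUSG00000023067, chromosome 17), whose product p21 is induced by MyoD in differentiating myoblasts and by p53 after DNA damage, had 642, 575 and 597 CPM in KO DM and 258, 274 and 265 CPM in KO GM. It had 809, 731 and 747 CPM in WT DM and 427, 382 and 380 CPM in WT GM. No library of any group reached into another group, and the order of the groups was WT DM, KO DM, WT GM and KO GM. Cdkn1a rose in DM by 1.19 ± 0.07 in KO-labelled cells (log2 fold change ± SE, adjusted p = 3.26e-11) and by 0.94 ± 0.07 in WT cells (adjusted p = 1.34e-09). Under the KO label it was lower, with a log2 fold change of -0.33 ± 0.07 in DM (adjusted p = 0.00111) and of -0.58 ± 0.07 in GM (adjusted p = 3.85e-06). The response of KO-labelled cells minus that of WT cells was 0.24 ± 0.10, which did not pass (adjusted p = 0.148), but did without both GM libraries numbered 3 (0.30, adjusted p = 0.0303). These 4 calls between groups held in all 23 alternative analyses.

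Cdkn1b, which encodes p27, an inhibitor largely controlled by protein degradation, had the smallest spread of group means among the inhibitors. It had 50.1, 54.8 and 59.4 CPM in KO DM and 44.8, 40.5 and 56.3 CPM in KO GM. In WT cells it had 49.5, 47.2 and 56.6 CPM in DM and 40.1, 41.8 and 57.1 CPM in GM. The groups overlapped, since the GM libraries numbered 3 were at the level of the DM libraries. No comparison of Cdkn1b passed: the response to DM was 0.22 ± 0.14 in KO-labelled cells (adjusted p = 0.232) and 0.14 ± 0.14 in WT cells (adjusted p = 0.476). Without both GM libraries numbered 3 the responses were 0.39 (adjusted p = 0.00124) and 0.32 (adjusted p = 0.0108), both past the threshold.

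Cdkn1c, an imprinted gene that encodes p57, had few reads, with 327 counts over all libraries. It had 3.65, 3.27 and 2.69 CPM in KO DM and 2.68, 2.17 and 2.48 CPM in KO GM, and 2.07, 2.04 and 2.30 CPM in WT DM and 3.50, 2.90 and 2.69 CPM in WT GM. Its means lay higher in DM than in GM under the KO label and lower in DM than in GM in WT cells. The log2 fold changes were 0.39 ± 0.27 (adjusted p = 0.267) and -0.50 ± 0.28 (adjusted p = 0.184), and their difference of 0.89 ± 0.39 did not pass either (adjusted p = 0.165).

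Cdkn2c, the INK4 inhibitor p18, had 43.5, 43.8 and 39.5 CPM in KO DM and 26.8, 21.1 and 19.5 CPM in KO GM. Its levels were 36.4, 31.5 and 35.6 CPM in WT DM and 24.0, 22.5 and 26.3 CPM in WT GM. Both DM groups lay above both GM groups, and KO DM lay above WT DM with no overlap. The rise in DM was 0.92 ± 0.11 in KO-labelled cells (adjusted p = 1.08e-06) and 0.51 ± 0.12 in WT cells (adjusted p = 0.00159), and the difference between these, 0.41 ± 0.16, did not pass (adjusted p = 0.121), but did without KO GM library 1 (0.57, adjusted p = 0.0322). In DM it was higher under the KO label by 0.29 ± 0.11 (adjusted p = 0.0486), a call that was lost in 6 of 23 alternatives.

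Of the other INK4 genes, Cdkn2a and Cdkn2b had 0 counts in all 12 libraries. Cdkn2d, which encodes p19INK4D, averaged 32.8 ± 2.55 CPM in KO DM, 25.1 ± 3.29 in KO GM, 25.4 ± 2.68 in WT DM and 24.1 ± 2.53 in WT GM (SD, n = 3 each). It rose by 0.38 ± 0.12 in DM in KO-labelled cells (adjusted p = 0.0128) and was higher in KO DM than in WT DM by 0.37 ± 0.12 (adjusted p = 0.0200). Its response in WT cells was 0.07 ± 0.12 (adjusted p = 0.69), and the difference of the responses, 0.30 ± 0.17, did not pass (adjusted p = 0.288).

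**Figure D2:**
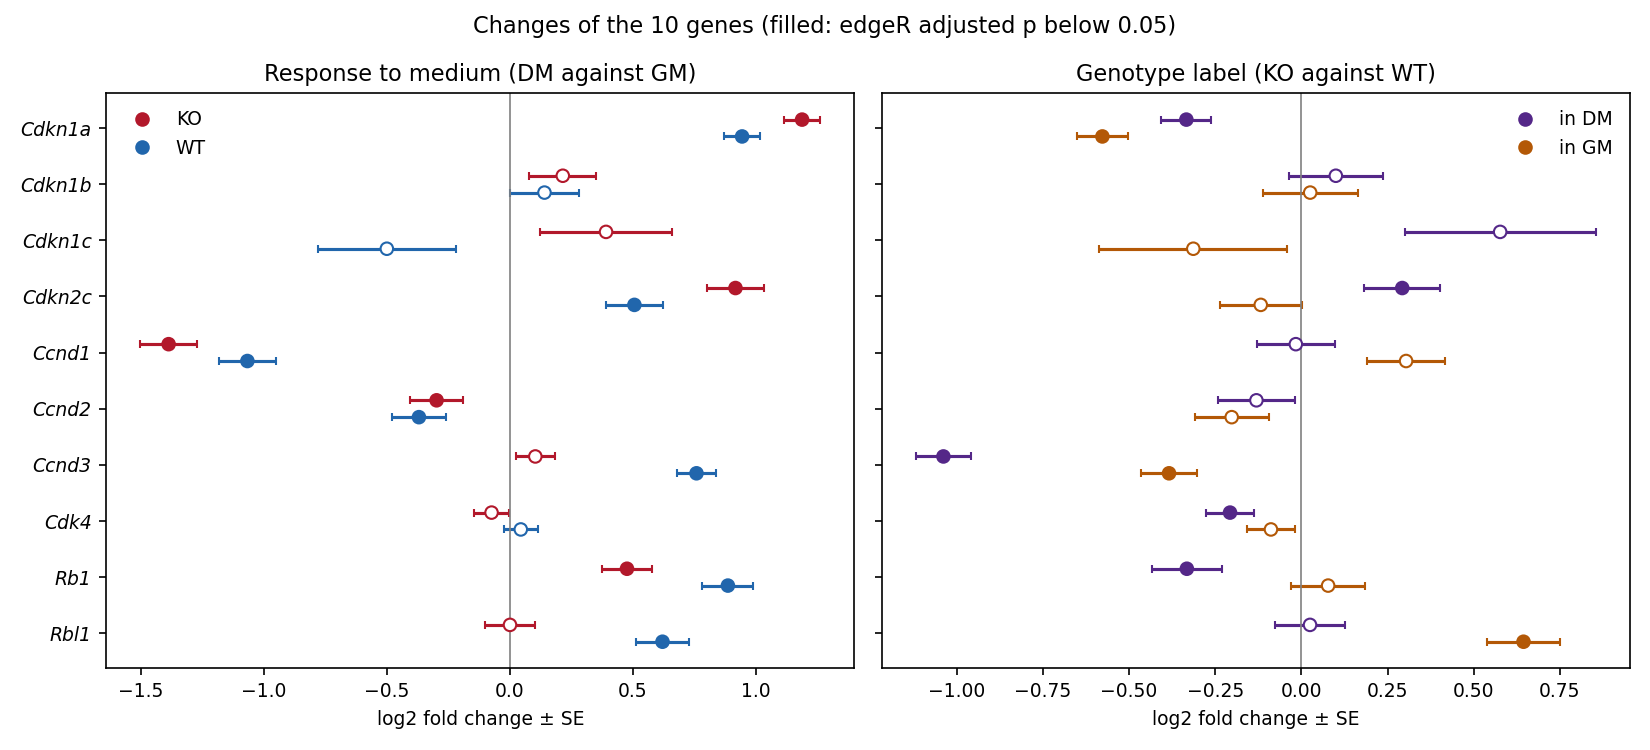
Log2 fold changes of the 10 genes with SE as bars, on the left for DM against GM in KO-labelled and WT cells and on the right for KO against WT in DM and in GM. Filled points passed the edgeR test at an adjusted p below 0.05. Ccnd3 lies near 0 in the KO response, at 0.10, and at 0.76 in the WT response.

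Cyclin D1 RNA fell in DM, while cyclin D3 RNA rose in WT cells. Ccnd1 had 269, 270 and 247 CPM in KO DM and 696, 762 and 598 CPM in KO GM, and 293, 277 and 225 CPM in WT DM and 606, 594 and 465 CPM in WT GM. Every DM library was below every GM library, and the lowest library of each GM group was the one numbered 3. The log2 fold change was -1.39 ± 0.12 in KO-labelled cells (adjusted p = 5.72e-08) and -1.07 ± 0.11 in WT cells (adjusted p = 1.60e-06). Between the labels the difference was -0.02 ± 0.11 in DM (adjusted p = 0.932) and 0.30 ± 0.11 in GM (adjusted p = 0.0681). The GM difference passed in 6 of 23 alternatives, among them DESeq2 (adjusted p = 0.0371) and the analysis without both GM libraries numbered 3 (0.27, adjusted p = 0.0216).

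On the opposite strand LTO1 overlaps 23.4% of the exon bases of Ccnd1 in GENCODE M21 (GRCm38). The sources used here do not give whether the counts use strand, so reads of the pair may have been mixed. LTO1 had 13006 counts over all libraries, against 53814 for Ccnd1, and fell in DM too, by -1.09 ± 0.14 in KO-labelled cells and -0.91 ± 0.14 in WT cells on the log2 scale (adjusted p = 4.45e-05 and 3.01e-04). Its part in the Ccnd1 values was not tested.

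Ccnd2 was the least abundant D cyclin RNA and was lower in DM than in GM. It had 23.8, 32.9 and 33.3 CPM in KO DM and 35.5, 36.7 and 38.4 CPM in KO GM, and 34.9, 31.3 and 32.5 CPM in WT DM and 43.1, 43.5 and 40.8 CPM in WT GM. The groups in DM and GM did not overlap under either label, and the KO DM library numbered 1 was the lowest of all. The log2 fold change was -0.30 ± 0.11 in KO-labelled cells (adjusted p = 0.0334) and -0.37 ± 0.11 in WT cells (adjusted p = 0.0113). The call in KO-labelled cells was lost in 9 of 23 alternatives, and without KO DM library 1 the value was -0.13 (adjusted p = 0.329). Without both GM libraries numbered 3 it was -0.24 (adjusted p = 0.0842).

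Ccnd3 had the largest change of the 10 between the labels in DM. It had 149, 143 and 122 CPM in KO DM and 127, 124 and 134 CPM in KO GM, which overlapped. In WT cells it had 304, 281 and 265 CPM in DM and 163, 163 and 177 CPM in GM, and all 6 of these libraries lay above all KO libraries. The response was 0.10 ± 0.08 in KO-labelled cells (adjusted p = 0.331) and 0.76 ± 0.08 in WT cells (adjusted p = 1.20e-07). The difference of the 2 responses was -0.65 ± 0.11 and passed (adjusted p = 8.81e-04), in 22 of 22 alternatives as well. Under the KO label Ccnd3 was lower in DM by a log2 fold change of -1.04 ± 0.08 (adjusted p = 1.50e-09) and in GM by one of -0.38 ± 0.08 (adjusted p = 0.00124). Bysl, on the opposite strand of 4.11% of the Ccnd3 exon bases, passed in no comparison.

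To compare the 3 D cyclins with each other, levels were set per length, as CPM per kilobase of annotated exon, and each gene was given as a share of their sum within a library. Ccnd3 made up 22.1%, 21.2% and 19.8% of D cyclin RNA in KO DM and 8.72%, 7.85% and 10.4% in KO GM. In WT cells its share was 34.5%, 34.0% and 37.1% in DM and 12.2%, 12.4% and 16.4% in GM. No groups overlapped, so that the share was higher in DM under both labels and lower under the KO label in both media. The share also depends on the other D cyclins. In the KO response Ccnd3 itself was not called (0.10 ± 0.08), whereas Ccnd1 fell (-1.39 ± 0.12). Ccnd1 made up 74.7% ± 0.42, 88.6% ± 1.65, 61.0% ± 2.05 and 83.1% ± 2.60 in KO DM, KO GM, WT DM and WT GM (SD, n = 3 each), and Ccnd2 2.17% to 5.05% in single libraries. These shares carry no test, since an exact permutation test of 3 against 3 libraries cannot go below 0.1. With the longest transcript as length, the Ccnd3 means were 32.3%, 15.1%, 49.2% and 22.1% in the same groups, in the same order. The Ccnd1 means were then 63.4%, 82.3%, 47.3% and 74.5%, so that in WT DM Ccnd3 had the largest share with this length and Ccnd1 with the exon length.

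**Figure D3:**
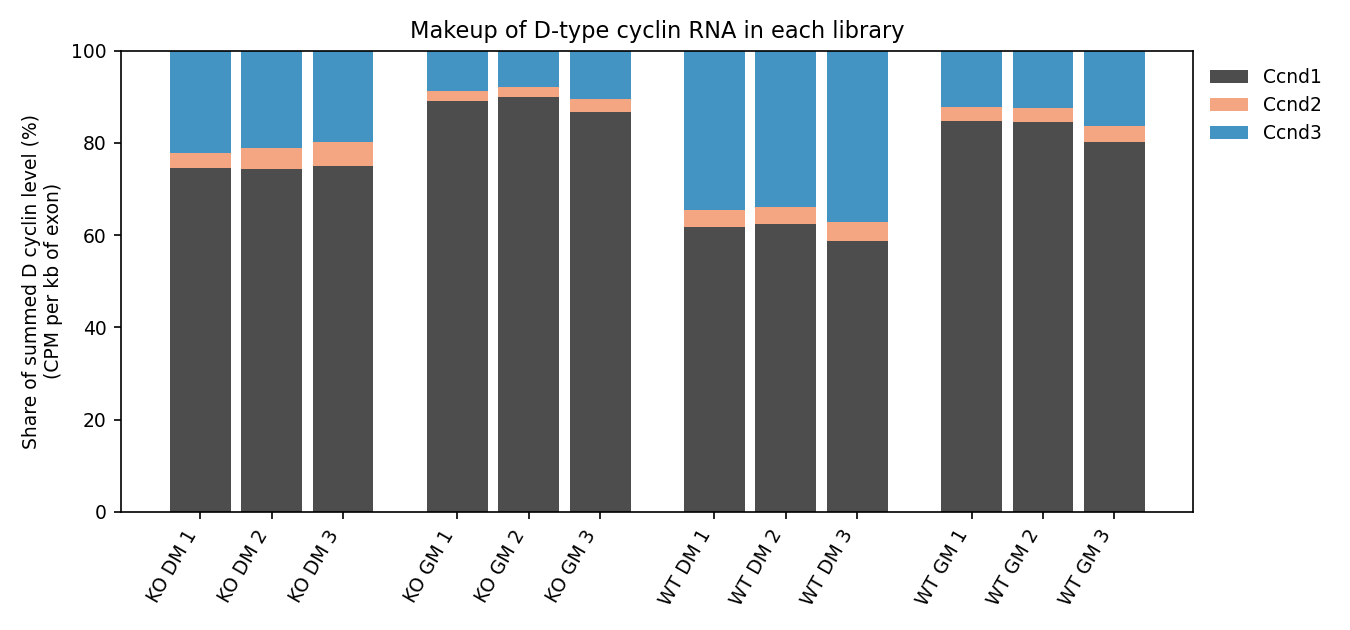
Stacked bars show, for each of the 12 libraries, the share of Ccnd1, Ccnd2 and Ccnd3 in the summed D cyclin level (%, from CPM per kilobase of exon). The Ccnd3 share lies between 19.8% and 22.1% in KO DM, 7.85% and 10.4% in KO GM, 34.0% and 37.1% in WT DM, and 12.2% and 16.4% in WT GM.

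Ratios within a library do not depend on the scaling between libraries. Counts of Ccnd3 per count of Ccnd1 lay between 0.492 and 0.552 in KO DM, 0.163 and 0.224 in KO GM, 1.01 and 1.18 in WT DM, and 0.269 and 0.380 in WT GM. Counts of Cdkn1a per count of Ccnd1 lay between 2.13 and 2.41 in KO DM, 0.360 and 0.443 in KO GM, 2.64 and 3.32 in WT DM, and 0.643 and 0.816 in WT GM. For both ratios the 4 groups were apart, in the order WT DM, KO DM, WT GM and KO GM.

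Cdk4, the catalytic partner of the D cyclins, had the smallest ratio of highest to lowest group mean of the 10 genes. It had 241, 217 and 220 CPM in KO DM, 248, 244 and 223 in KO GM, 268, 256 and 260 in WT DM, and 258, 253 and 249 in WT GM. Neither response to DM passed (-0.07 ± 0.07 in KO-labelled cells, adjusted p = 0.431, and 0.04 ± 0.07 in WT cells, adjusted p = 0.671). In DM it was lower under the KO label (-0.21 ± 0.07, adjusted p = 0.0279), a call lost in 10 of 23 alternatives, with an adjusted p of up to 0.178. Tspan31 on the opposite strand overlaps 19.7% of the Cdk4 exon bases and fell in DM in KO-labelled cells (-0.28 ± 0.07, adjusted p = 0.00151).

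Among the pocket proteins, Rb1 RNA rose in DM under both labels, whereas that of Rbl1 rose in WT cells and was higher in KO GM than in WT GM. Rb1 had 50.4, 59.7 and 54.2 CPM in KO DM and 42.3, 37.2 and 38.8 CPM in KO GM, and 68.0, 65.9 and 73.0 CPM in WT DM and 32.1, 35.8 and 44.0 CPM in WT GM. The DM groups lay above the GM groups, WT DM lay above KO DM, and the GM groups overlapped. The rise was 0.48 ± 0.10 in KO-labelled cells (adjusted p = 7.54e-04) and 0.89 ± 0.10 in WT cells (adjusted p = 6.12e-07). In DM Rb1 was lower under the KO label (-0.33 ± 0.10, adjusted p = 0.0147), and this call was lost in 3 of 23 alternatives. The difference of the responses was -0.41 ± 0.15 (adjusted p = 0.0843) and passed when WT GM library 3 was left out (-0.52, adjusted p = 0.0109). Rcbtb2 and Lpar6 overlap 8.11% and 6.78% of the Rb1 exon bases on the opposite strand. Rcbtb2 rose in DM too, by 0.74 ± 0.12 in KO-labelled cells and 0.32 ± 0.12 in WT cells, with 2737 counts in all against 6034 for Rb1, and its part was not tested.

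Rbl1, which encodes p107 and is itself known as an E2F target, had 51.1, 49.2 and 47.3 CPM in KO DM and 57.1, 47.1 and 43.5 CPM in KO GM. It had 46.3, 52.9 and 45.7 CPM in WT DM and 29.1, 30.5 and 34.6 CPM in WT GM. The 3 WT GM libraries were the lowest, and the other 3 groups overlapped. The response was 0.00058 ± 0.10 in KO-labelled cells (adjusted p = 0.998) and 0.62 ± 0.11 in WT cells (adjusted p = 7.80e-05), and their difference of -0.62 ± 0.15 passed (adjusted p = 0.0105) and did so in 22 of 22 alternatives. Under the KO label Rbl1 was higher in GM by 0.64 ± 0.11 (adjusted p = 9.40e-05) and not called in DM (0.03 ± 0.10, adjusted p = 0.879).

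Rbl2, which encodes p130, the pocket protein typical of resting and differentiated cells, followed the label more than the medium. It had 187, 204 and 206 CPM in KO DM and 154, 150 and 176 CPM in KO GM, against 92.6, 108 and 106 CPM in WT DM and 94.6, 93.5 and 105 CPM in WT GM. All 6 KO libraries lay above all 6 WT libraries. Rbl2 was higher under the KO label by 0.96 ± 0.08 in DM (adjusted p = 5.50e-09) and by 0.71 ± 0.08 in GM (adjusted p = 8.76e-07). It rose in DM by 0.32 ± 0.08 in KO-labelled cells (adjusted p = 0.00286), and its response in WT cells was 0.07 ± 0.08 (adjusted p = 0.567).

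The test of whether the response to DM differed between the labels called 2 of the 10 genes, Ccnd3 and Rbl1, both lower in the KO response. Of all tested genes 8.86% were called, 3.61% higher and 5.25% lower. The median of the 10 genes was -0.02 and that of all genes -0.01. Without both GM libraries numbered 3, Rb1 (-0.53, adjusted p = 0.00491) and Cdkn1a also passed, giving 4 of 10, while the count over all genes was 2709 in place of 1174. That count was 693 without WT DM library 2, 735 and 741 without KO GM library 1 or 2, 754 without KO DM library 1 and 1920 without KO GM library 3. Of the 1174 genes 40.7% were higher in the KO response. With library totals alone as the scaling, 57.8% of the genes then called were higher.

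**Figure D4:**
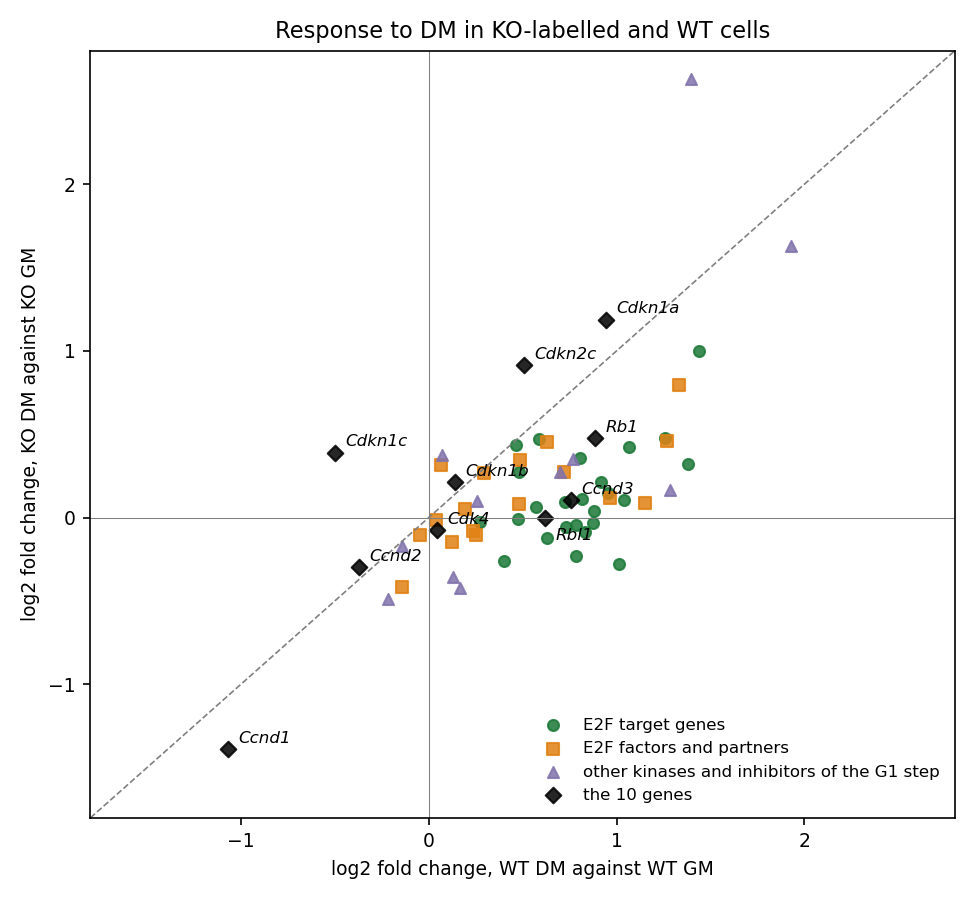
The log2 fold change in WT cells (WT DM against WT GM, x axis) is set against that in KO-labelled cells (KO DM against KO GM, y axis) for the 10 genes and for 3 lists of related genes; the dashed line marks equal responses. Ccnd3 and Rbl1 lie near 0 on the y axis beside most E2F target genes, whose medians are 0.80 in WT and 0.10 in KO-labelled cells.

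Genes activated by E2F rose in DM in WT cells and were higher in KO GM than in WT GM. Beside this and the following lists, 40.6% of all tested genes were called in the KO response and 33.2% in the WT response. Between labels 31.0% were called in DM and 20.7% in GM, and 8.86% in the difference of the responses. Of 25 E2F target genes of DNA replication and nucleotide synthesis, 7 rose and 2 fell in the KO response, with a median log2 fold change of 0.10. In the WT response 24 rose and none fell, with a median of 0.80. Thymidine kinase Tk1 changed most in both, by 1.00 ± 0.12 in KO-labelled cells (adjusted p = 5.36e-07) and 1.44 ± 0.12 in WT cells (adjusted p = 1.08e-08). The histone chaperone subunit Chaf1b rose by 1.38 ± 0.12 and the polymerase subunit Pole by 1.26 ± 0.11 in WT cells. In GM 20 of the 25 were higher under the KO label and none lower, with a median of 0.64, led by the helicase subunit Mcm5 at 1.36 ± 0.09 (adjusted p = 1.96e-10) and the licensing factor Cdc6 at 1.17 ± 0.10 (adjusted p = 1.20e-08). In DM 2 were higher and 3 lower, with a median of -0.08. The difference of the responses was negative and called for 19 of 25 (median -0.70), for example Cdc6 at -1.29 ± 0.14 (adjusted p = 4.02e-06). Cdc6 averaged 42.5 ± 4.04 CPM in KO DM, 51.6 ± 4.47 in KO GM, 46.1 ± 0.826 in WT DM and 22.8 ± 1.66 in WT GM (SD, n = 3 each), so that WT GM was the low group, as it was for Rbl1.

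The proliferation markers Mki67, Top2a and Ccnb1 stood beside this. Their summed level lay between 346 and 378 CPM in KO DM, 146 and 160 CPM in KO GM, 269 and 342 CPM in WT DM, and 77.6 and 132 CPM in WT GM, the highest WT GM value belonging to library 3. All 3 rose in DM under both labels. The markers measure whole cultures, and their part in the values of the E2F targets and of Rbl1 was not tested.

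Of 17 tested E2F factors and pocket protein partners, 5 rose and 1 fell in the KO response and 9 rose in the WT response. E2f2, an activating E2F, rose by 0.79 ± 0.11 in KO-labelled cells (adjusted p = 5.08e-06) and 1.33 ± 0.11 in WT cells (adjusted p = 3.66e-09). Under the KO label 1 was higher and 2 lower in DM, E2f2 at -0.57 ± 0.10 and the atypical repressor E2f8 at -0.54 ± 0.12, and 7 were higher in GM, led by E2f7 at 0.85 ± 0.13. In the difference of the responses 4 were called, all negative, with E2f8 at -1.06 ± 0.17 (adjusted p = 5.18e-04). The list medians were 0.09 in the KO response and 0.30 in the WT response, -0.05 between labels in DM and 0.17 in GM, and -0.28 in the difference of the responses.

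Of 11 tested kinases, cyclins and inhibitors of the G1 step outside the 10, 5 rose and 3 fell in the KO response (median 0.16) and 6 rose in the WT response (median 0.26). Cyclin A2, Ccna2, rose by 1.63 ± 0.18 in KO-labelled cells and 1.93 ± 0.19 in WT cells. In GM 5 were higher under the KO label (median 0.32), with cyclin E2, Ccne2, at 1.03 ± 0.15 (adjusted p = 4.64e-05) and Cdk6, the other kinase partner of D cyclins, at 0.59 ± 0.09 (adjusted p = 4.64e-05). Cdk6 averaged 73.8 ± 9.19 CPM in KO DM, 99.0 ± 6.22 in KO GM, 73.7 ± 6.45 in WT DM and 65.6 ± 3.96 in WT GM (SD, n = 3 each). In DM 1 was higher and 1 lower (median -0.07), and in the difference of the responses 4 were negative (median -0.30), among them Ccne2 at -1.12 ± 0.20 (adjusted p = 0.00198).

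A further list of 16 genes was drawn up around the turnover of p21, p27 and D cyclin proteins, and includes genes that act for it and against it. Whether each gene acts on these proteins was not tested. Of the 16 genes, 3 rose in the KO response and 8 in the WT response, and none fell. The shares called of all tested genes were 40.6% and 33.2%. The median was 0.03 in the KO response and 0.18 in the WT response. Usp2, a deubiquitinase of cyclin D1, rose by 2.08 ± 0.32 in KO-labelled cells and 2.16 ± 0.29 in WT cells. Skp2, the F-box protein that targets p27, was higher under the KO label in GM by 0.54 ± 0.11 (adjusted p = 6.00e-04), as was Dtl, an adaptor that targets p21, by 0.83 ± 0.15 (adjusted p = 5.13e-04). In GM no other of the 16 passed (median 0.01). In DM 1 was higher, Skp1 at 0.33 ± 0.08, and 3 were lower (median -0.08), among them Usp2 at -0.79 ± 0.26 and Fbxw7 at -0.72 ± 0.13. Both Dtl (-1.0 ± 0.20) and Skp2 (-0.68 ± 0.15) were called in the difference of the responses, and 3 of the list were in all (median -0.07).

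The p53 targets moved in both directions. Of 19 tested, 6 rose and 6 fell in the KO response (median -0.12), and 6 rose and 8 fell in the WT response (median -0.08). The stress gene Gadd45a rose by 1.65 ± 0.20 in KO-labelled cells and 1.47 ± 0.19 in WT cells, and the receptor gene Eda2r by 1.31 ± 0.11 in KO-labelled cells (adjusted p = 2.18e-09). Pmaip1, which encodes the BH3-only protein Noxa, averaged 1.69 ± 0.909 CPM in KO DM and 1.97 ± 0.72 in KO GM, against 29.4 ± 0.891 in WT DM and 11.2 ± 1.85 in WT GM (SD, n = 3 each). Its log2 fold change under the KO label was -4.13 ± 0.25 in DM and -2.53 ± 0.25 in GM. In DM 2 of the 19 were higher and 2 lower under the KO label (median 0.07), the death receptor gene Fas being higher by 1.31 ± 0.17, and in GM none was higher and 5 were lower (median -0.01). In the difference of the responses 2 were positive and 1 negative (median 0.14).

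Of 22 regulators known to act on the transcription of p21 or D cyclins, 8 rose and 9 fell in the KO response (median 0.04), and 10 rose and 6 fell in the WT response (median -0.03). Myog, which encodes myogenin, averaged 299 ± 15 CPM in KO DM, 31.4 ± 14.6 in KO GM, 615 ± 37.3 in WT DM and 163 ± 49.5 in WT GM (SD, n = 3 each). The AP-1 subunit gene Fosl1 fell in the KO response (-1.97 ± 0.12, adjusted p = 1.77e-09) and in the WT response (-1.50 ± 0.12, adjusted p = 5.21e-08). Under the KO label 3 were higher and 8 lower in DM (median -0.09), and 2 higher and 6 lower in GM (median -0.03). Myod1, an activator of Cdkn1a in muscle cells, was lower under the KO label in GM (-0.97 ± 0.09, adjusted p = 4.30e-08) and in DM (-0.33 ± 0.09, adjusted p = 0.00548). In the difference of the responses 3 were positive and 4 negative (median -0.11), among them the early-response factor Egr1 at -1.32 ± 0.12 and the bHLH inhibitor Id3 at 0.97 ± 0.11.

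Set per length, Cdkn1a and Ccnd1 were the most abundant of the 10 RNAs in turn. Cdkn1a was at 170 ± 9.65 CPM per kilobase in KO DM, 74.7 ± 2.38 in KO GM, 215 ± 11.6 in WT DM and 112 ± 7.54 in WT GM, and Ccnd1 at 55.7 ± 2.69, 146 ± 17.6, 56.3 ± 7.52 and 118 ± 16.6 in the same groups (SD, n = 3 each). In DM Cdkn1a ranked 1 and Cdk4 ranked 2 under both labels, and in GM Ccnd1 ranked 1. The ranges of Cdkn1a and Ccnd1 overlapped in WT GM, where Cdkn1a ranked 1 when the longest transcript was taken as length. Cdk4 lay between 69.6 and 80.4 CPM per kilobase as group means, and Ccnd2 and Cdkn1c were the lowest, at 3.19 to 4.51 and 1.05 to 1.57.

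For the genes called in at least 3 of the 5 comparisons, the genes with the most similar course over the 12 libraries were sought among 11945 by the root-mean-square difference of centred log2 CPM. Closest to Cdkn1a were Pacs2 (0.135), Pdlim4 (0.138) and Cryab (0.138), where Cdkn1a itself had an SD of 0.586. Closest to Rbl1 were Rpa1 (0.0764), Pcna (0.0910) and Tipin (0.0963), with an SD of 0.297 for Rbl1. Rpa1 averaged 195 CPM in KO DM, 198 in KO GM, 185 in WT DM and 127 in WT GM, so that WT GM was the low group here too. For Ccnd3 they were Ube2d1 (0.121), Tgm2 (0.151) and Tmsb10 (0.151). Rb1 had Pea15a (0.0986), Cnn3 (0.0991) and Rrm1 (0.116), and Cdkn2c had Cep128 (0.113), Washc3 (0.136) and Cxcl12 (0.143). These likenesses describe 12 libraries in 4 groups and carry no test.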

How the data were processed

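The deposited data are raw counts per gene, as whole numbers without normalization, in a single table of 12 libraries (4 groups of 3). The submitters' processing notes name GRCm39, RSEM 1.3.3, STAR 2.7.1a, DESeq2 1.40.2 and R 4.3.1, without their roles. The sources used here do not give the strand setting or the annotation release. The table has 55416 genes, 52083 with a symbol, and 4 empty columns that were not used.

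Counts were fitted in R 4.3.3 with edgeR 4.0.16 (filterByExpr, TMM scaling, robust quasi-likelihood fit of 12 libraries with a mean per group). The 13250 genes kept, 20 of them without a symbol, held 99.9% of counts. P-values were 2-sided and adjusted by Benjamini-Hochberg over these genes for each of 5 contrasts, and genes below 0.05 were called. SE is the log2 fold change divided by the square root of F. CPM values use TMM library sizes. Exon lengths, strands and overlaps came from GENCODE M21 (GRCm38), and promoter windows from RefSeq (GRCm38.p6); coordinates on the authors' build were not used. Floors cover counting error only.

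The labels call the replicates biological without naming separate cultures, so p-values measure the spread between these samples. The labels also give 1 batch for all libraries. Same-numbered libraries were not treated as pairs. The 10 genes were listed by function, but that list, the other gene lists, the markers and the tests were chosen with earlier results of these data known. Named outside the 10 are Mapk14, INK4 and pocket protein genes, up to 3 called genes of each list and contrast with the largest change, markers, genes on the opposite strand of the 10, and the 3 genes nearest in course to those of the 10 called in at least 3 contrasts. Lin54 was not analysed here. Alternatives were 3 other scalings, DESeq2 1.42.0, limma-voom (limma 3.58.1), a stricter filter and none, dispersions without robust estimation, fits of 6 libraries, a replicate block, and leaving out libraries.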

Additional observations from a re-analysis of the deposited data

Results flagged for a closer look

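The response to DM differed between KO-labelled and WT cells, by the interaction term of the edgeR fit, for 2 of the 10 genes and for genes of each list. The up to 3 called genes of a list with the largest difference are given first. Values are the log2 response of KO-labelled cells minus that of WT cells. Of the 10 cell cycle exit genes these were Ccnd3 at -0.65 (adjusted p = 8.81e-04) and Rbl1 at -0.62 (adjusted p = 0.0105).

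Of the other G1 genes, Ccne2 was at -1.12, Cdk6 at -0.59 and Cdc25a at -0.48. Among E2F factors and partners, E2f8 was at -1.06, E2f7 at -0.85 and Mybl2 at -0.81. Among genes of protein turnover, Dtl was at -1.0, Skp2 at -0.68 and Fbxw7 at -0.60, the last with an adjusted p of 0.0449. Among E2F target genes, Cdc6 was at -1.29, Chaf1b at -1.06 and Mcm3 at -1.02.

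Named genes of the lists outside these that also passed are E2f2 at -0.54, Mcm5 at -0.93, Pole at -0.78, Rrm1 at -0.64, Pcna at -0.48 and Myod1 at 0.64. Among markers, Cd14 at 1.23 and Tubb3 at -1.42 passed. Genes named only as nearest in course, such as Rpa1 and Ube2d1, are not covered here.

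The p53 targets went both ways, with Pmaip1 at -1.61, Fas at 0.95 and Btg2 at 0.64. So did the regulators of p21 and cyclin D transcription, with Hmga2 at -1.81, Egr1 at -1.32 and Id3 at 0.97. Egr1 averaged 67.8 ± 6.42 CPM in KO DM, 90.3 ± 8.83 in KO GM, 113 ± 6.14 in WT DM and 60.6 ± 3.32 in WT GM (SD, n = 3 each).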

How the results depend on the processing

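Over 23 alternatives, 1073 of 1140 values of the 10 genes kept their direction and their side of the threshold, 28 lost a call, 16 gained one and 23 changed sign, all of the last uncalled before and after. In the difference of the responses, leaving out both GM libraries numbered 3 gave 4 called of the 10 genes and 2709 of all genes. Leaving out 1 library at a time gave 2 to 5 of the 10 genes called for KO DM against WT DM, the lowest without WT DM library 3, and 3 without KO DM library 1, 2 or 3 or WT DM library 2. Over all genes the count for this comparison was then 3177 to 4583, against 4114 with all 12 libraries. For the difference of the responses over all genes, leaving out 1 library gave 693 (without WT DM library 2) to 1920 (without KO GM library 3). The cause of these differences was not tested.

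The sign of Ccnd1 in KO DM against WT DM (-0.02) turned to 0.0087 with upper-quartile factors, 0.0256 with total counts alone, 0.0098 with no filter on low counts, 0.0027 with the stricter filter, 0.0070 with only the 6 libraries compared and 0.0030 without both GM libraries numbered 3, and lay between -0.10 and 0.0755 when 1 library was left out. Without both GM libraries numbered 3, Rbl1 in KO DM against KO GM was -0.0577 and Cdkn2c in KO GM against WT GM 0.0290. Leaving out 1 library gave -0.0754 to 0.12 for Rbl1 in KO DM against KO GM, -0.20 to 0.0310 for Ccnd2 in KO DM against WT DM, -0.13 to 0.20 for Cdkn1b and -0.0279 to 0.21 for Rb1 in KO GM against WT GM, and -0.0786 to 0.24 for Cdkn1b in the difference of the responses.

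With a replicate block, 6 of the 10 genes were called in KO DM against KO GM (with Cdkn1b, 0.22, adjusted p = 0.0413), 7 in WT DM against WT GM, 5 in KO DM against WT DM, 4 in KO GM against WT GM (with Ccnd1, 0.31) and 3 in the difference of the responses (with Ccnd1, -0.31, adjusted p = 0.0322). Over all tested genes the block gave more calls too, with 5679, 4786, 4494, 3130 and 1587 in these comparisons, in the same order. Without the block these counts were 5381, 4405, 4114, 2740 and 1174. Deviations of same-numbered libraries correlated between -0.09 and 0.19. Not every pair was above 0.1 and the labels tie no libraries together, so the numbers were not taken as pairs; as a hint from the data, not the design, 26 of 36 best matches had the same number.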
